A study of Homo sapiens with 40 samples.

Results

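The 8 arrays described here compared OTX015 with its solvent DMSO after 24 h in 4 human mantle cell lymphoma lines. They are all the arrays labelled 24 h among the 40 of a time course that sampled each line after 2, 4, 8, 12 and 24 h of either exposure. OTX015 is a small molecule inhibitor of the BET bromodomain proteins. The lines, GRANTA519, JEKO1, MAVER1 and REC1, are established cultures of this B cell cancer. At 24 h each line had 1 OTX015 array and 1 DMSO array, which gave 4 pairs, and the lines served as the replicates. The labels state neither the dose nor if cultures were separate for each time, so the errors below are the spread between 4 lines with 1 array each.

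BET proteins bind acetylated histone tails and recruit the elongation kinase P-TEFb, which releases paused RNA polymerase II into genes. Inhibitors such as OTX015 occupy the pocket that binds acetyl-lysine and displace the proteins from chromatin. In B cell lymphomas the genes known to depend strongly on BET proteins include those of B cell identity, and histone and P-TEFb inhibitor genes are known to rise under such compounds.

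On the 24 h arrays between 39.6% and 44.2% of the 47231 probes gave a signal above background, and the closest match of each array was an array of the same line. Signals are given as background-corrected, quantile-normalised log2 values, and a difference is OTX015 minus DMSO on that scale with the SD over the 4 lines. Of 13740 genes measured, 2021 passed an adjusted p of 0.05 in limma's paired test at 24 h, and 4220 had an unadjusted p under 0.05. Markers of the B lineage fitted the label: 8 of 10 were among the genes measured, and 5 of them were detected on all 8 arrays. Of the T and NK cell markers 2 of 12 were measured, of the myeloid markers 5 of 12 and of the epithelial and fibroblast markers 8 of 12, and none of these was called at 24 h. Averaged over its measured genes, the myeloid list lay between 5.63 and 6.41 on the DMSO arrays and between 5.45 and 5.74 on the OTX015 arrays. The T and NK cell list lay between 4.36 and 7.31 and between 4.45 and 6.42, and the epithelial and fibroblast list between 5.31 and 6.29 and between 5.23 and 5.77. CD3E, NKG7, MPO and S100A8, markers of T, NK and myeloid cells, were not among the genes measured. Some other members of these lists were well above background. CD3D, a T cell receptor chain, lay at 10.03 in REC1 under DMSO and at 8.16 under OTX015. In the other lines it lay between 4.21 and 4.37. CD68, of the myeloid list, was detected on all 8 arrays, with means of 8.67 under DMSO and 8.81 under OTX015. The arrays read bulk RNA, so that fewer cells expressing a gene and less RNA per cell cannot be told apart.

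At 24 h 1038 genes rose, which is 7.55% of the genes measured, and 983 fell, which is 7.15%. The falls were the larger changes. Of the rises 161 were at least 2-fold (1.17% of the genes measured), against 316 of the falls (2.3%). The median difference of all genes was 0.01. The sign was the same in all 4 lines for 2010 of the 2021 genes called and for 39.3% of all genes measured. In single pairs, with no test, GRANTA519 held 465 genes at least 2-fold higher (3.38%) and 597 at least 2-fold lower (4.34%). JEKO1 held 343 (2.5%) and 652 (4.75%), MAVER1 349 (2.54%) and 462 (3.36%), and REC1 189 (1.38%) and 417 (3.03%). REC1 thus had the fewest genes past 2-fold in each direction, and genes past 2-fold lower outnumbered those higher in every line. Across the genes, the differences of any pair of lines correlated at r between 0.513 and 0.608, a description over genes, which are not independent replicates.

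Histone genes of the replication-dependent clusters, which package newly made DNA, made up 9 of the 15 largest rises. Of 63 such genes listed 55 were measured, 33 of these rose and none fell, against 7.55% of all genes called as rises. Their median difference was 0.95, against 0.01 over all genes, and this size depended on the processing: it was 0.35 without background correction or with the authors' log2 values and 0.53 with an offset of 50. By family, 8 of 11 H2A genes, 9 of 14 H2B genes, 9 of 13 H3 genes, 6 of 13 H4 genes and 1 of 4 H1 genes rose. The smaller histone cluster on chromosome 1 held 10 called genes of 11, and the large cluster on chromosome 6 held 22 of 43. Only 20 of the 55 were detected on all 8 arrays, so a good part of the list lay near background on some arrays. Many of these genes are near-copies of each other, and the probes of H4C14 and H4C15, or of H2AC18 and H2AC19, may not tell their targets apart.

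Values of the lines are given in the order GRANTA519, JEKO1, MAVER1 and REC1 throughout. H2BC5, an H2B gene, lay at 7.83, 9.88, 7.47 and 7.59 under DMSO and at 11.14, 11.39, 10.76 and 10.61 under OTX015. Every OTX015 array was above every DMSO array, and JEKO1 had both the highest start and the smallest rise. The difference was 2.79 ± 0.86, or 6.90-fold, with an adjusted p of 0.00453. H2BC21, an H2B gene of the chromosome 1 cluster, lay at 6.28, 9.10, 5.44 and 5.81 under DMSO and at 9.13, 10.74, 8.69 and 9.19 under OTX015. Here the groups overlapped, because the JEKO1 DMSO array was above the MAVER1 OTX015 array, although each line rose (2.78 ± 0.79, adjusted p = 0.00408). H2AC11, an H2A gene, was the most even of the large histone rises, at 5.74, 6.59, 5.54 and 4.55 under DMSO and 8.28, 8.87, 8.41 and 6.75 under OTX015. No OTX015 array overlapped the DMSO arrays, and its difference was 2.48 ± 0.30 with an adjusted p of 0.0018. H2AC6 rose by 3.36, 0.45, 3.02 and 2.88, so that JEKO1 barely moved, and its mean of 2.43 ± 1.33 (adjusted p = 0.0188) was not called without GRANTA519 (adjusted p = 0.0788), MAVER1 (0.0808) or REC1 (0.0665).

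JEKO1 held the highest DMSO signal of the 4 lines for 29 of the 33 histone genes called, against 26.4% of all genes measured. It also held the highest OTX015 signal for 29 of them. JEKO1 had the smallest rise for 10 of the 33, against 8, 6 and 9 for GRANTA519, MAVER1 and REC1. Over all 55 histone genes measured the line medians were 0.89, 1.21, 0.83 and 0.80. The median rise over the 33 was 1.57, 1.44, 1.43 and 1.22 in the 4 lines, a description of genes chosen for having risen. Most replication-dependent histone transcripts end in a stem-loop and carry no poly(A) tail. The labelling kit named in the labels primes on such tails, so a change in tailing and a change in amount cannot be told apart here.

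Part of the histone rise was present early. H2BC21 stood at 2.15 ± 0.63 after 2 h and its change from 2 h to 24 h, 0.64, had an adjusted p of 0.141. H2AC11 rose further, from 0.86 at 2 h, by 1.61 (adjusted p = 2.01e-04). The median of the 55 genes was 0.57, 0.72, 0.75, 0.74 and 0.95 at 2, 4, 8, 12 and 24 h.

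The promoters of histone genes that rose are shown because many H2A and H2B promoters hold the same short elements, and VPREB3, a B cell gene that fell, is shown as the 1 promoter among those of the largest falls that holds the octamer. Each run is the 250 bases before the gene's start, 5′ to 3′ on the gene's strand, from RefSeq on GRCh38.p14. Capitals mark the octamer, ATGCAAAT, and the TATA box, TATAAA, on either strand.

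H2BC21: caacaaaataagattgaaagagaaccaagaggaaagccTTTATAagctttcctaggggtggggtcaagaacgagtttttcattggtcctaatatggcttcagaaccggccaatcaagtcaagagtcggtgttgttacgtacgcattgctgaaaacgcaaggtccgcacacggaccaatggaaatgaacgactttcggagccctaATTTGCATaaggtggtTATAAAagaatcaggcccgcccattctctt

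H2BC11: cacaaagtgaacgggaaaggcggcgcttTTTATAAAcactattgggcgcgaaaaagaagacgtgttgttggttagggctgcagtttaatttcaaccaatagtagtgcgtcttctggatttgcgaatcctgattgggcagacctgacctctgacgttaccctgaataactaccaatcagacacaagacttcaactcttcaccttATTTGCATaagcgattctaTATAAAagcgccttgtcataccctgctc

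VPREB3: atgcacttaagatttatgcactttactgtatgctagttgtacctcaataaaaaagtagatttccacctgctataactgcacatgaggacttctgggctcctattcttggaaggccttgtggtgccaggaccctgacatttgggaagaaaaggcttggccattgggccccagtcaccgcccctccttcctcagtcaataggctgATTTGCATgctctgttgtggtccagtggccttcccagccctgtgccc

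H2BC21 lies at chr1:149886683-149886932 on the minus strand, with the octamer at position -46 and the nearer TATA box at -30 from the start. H2BC11, whose pattern was close to that of H2BC21 and which was chosen after its values were seen, lies at chr6:27132796-27133045 on the minus strand. Its octamer begins at -47 and its nearest TATA box at -28. The window is nearly the same stretch, on the other strand, as that of H2AC11 at chr6:27132793-27133042. H2BC11 rose by 2.27, 0.93, 2.27 and 1.72 (1.80 ± 0.63, adjusted p = 0.00717), so both genes of this head-to-head pair rose. VPREB3 lies at chr22:23754426-23754675 on the minus strand and its octamer also begins at -47, with no TATA box match in the window. Counted over the first start listed for each gene, the octamer was present on either strand in 12 of 14 H2B promoters and 8 of 11 H2A promoters, in 1 of 11 H3 promoters, in 0 of 11 H4 promoters and in 1.66% of the 27305 genes with a promoter in the table. It was present in 1 of the 10 promoters found for the 15 largest falls, that of VPREB3, and in 1 of 30 of the B cell receptor list. Since H2A and H2B genes often share one window, the first 2 counts are not independent. The TATA box was present in 66.7% of 51 histone promoters and in 11.1% of those of all genes in the table. The letters CCAAT were present in 82.4% against 33.0%, and GAGGAA, the core of PU.1 sites, in 33.3% against 23.4%. GAGGAA was also present in 6 of the 10 promoters found for the 15 largest falls and in 12 of 30 of the B cell receptor list. Of the 14 promoters found for the 15 largest rises 4 held it. H2BC5, which rose as far as H2BC21, had no octamer match in its window. These matches are descriptions of the letters and were not tested as binding sites.

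**Figure D1:**
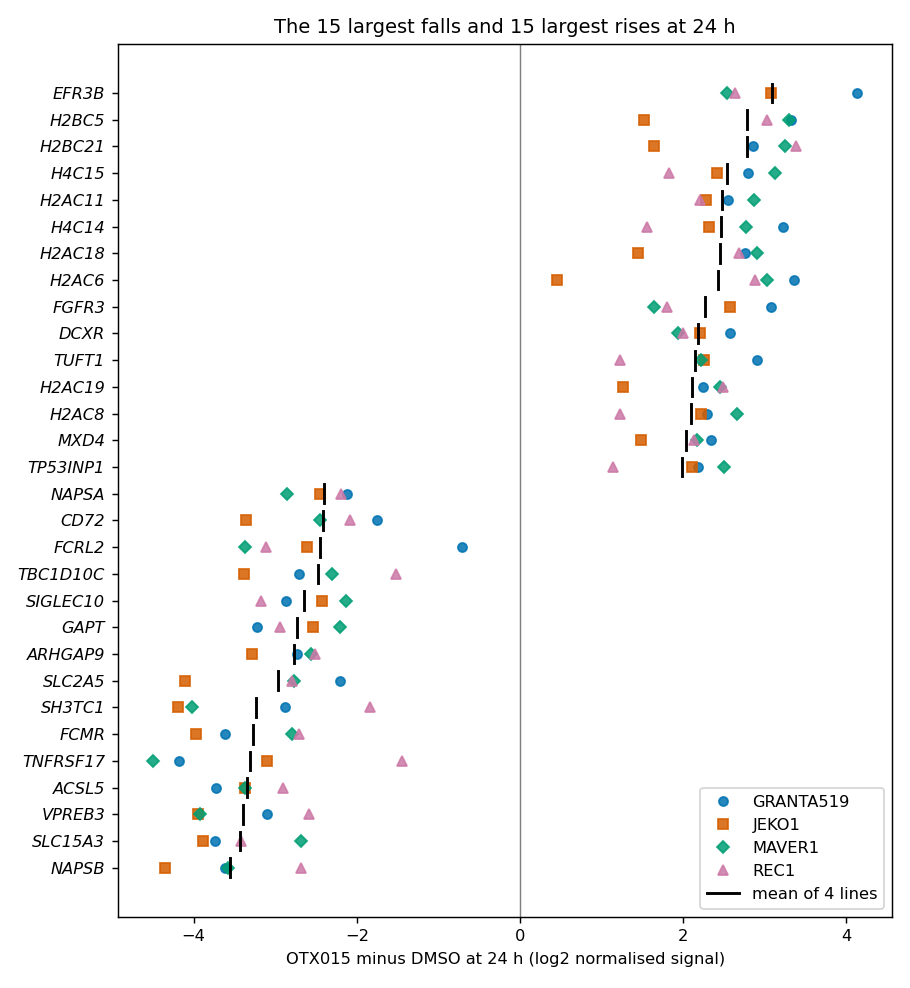
The 15 largest rises and 15 largest falls at 24 h, as OTX015 minus DMSO in log2 normalised signal (horizontal axis), with 1 symbol for each of the 4 lines and a bar at their mean. All 30 genes have the same sign in all 4 lines; NAPSB is lowest at a mean of -3.56 and EFR3B highest at 3.09, and H2AC6 in JEKO1 stands at 0.45.

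Outside the histones the largest rise was that of EFR3B, a scaffold for lipid kinase at the plasma membrane. It lay at 4.47, 4.37, 4.43 and 4.70 under DMSO, where no array detected it, and at 8.60, 7.44, 6.96 and 7.34 under OTX015. The groups were far apart and OTX015 was at least 6.28-fold higher (means 4.49 and 7.59, adjusted p = 0.00307). Its 3 probes disagreed, since their mean rose by 1.03 only. FGFR3, a receptor tyrosine kinase, rose by 2.27 ± 0.67 (adjusted p = 0.00453), and by 1.17 over the mean of its 2 probes. DCXR, a sugar and carbonyl reductase, lay at 7.68, 8.19, 7.74 and 8.84 under DMSO and at 10.25, 10.39, 9.67 and 10.83 under OTX015, with no overlap. Its difference of 2.18 ± 0.29 (adjusted p = 0.0018) was among the most even. TUFT1, the gene of tuftelin, rose by 2.90, 2.25, 2.21 and 1.22 (2.15 ± 0.69, adjusted p = 0.0053).

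Of 24 listed BET, P-TEFb and elongation genes 22 were measured, 6 rose and 1 fell, against 7.55% and 7.15% of all genes, and the median was 0.14. SERTAD1, a CDK4-binding cofactor, rose most of this list, from 7.84, 7.61, 7.51 and 7.79 to 9.14, 8.61, 8.84 and 8.57. All OTX015 arrays were above all DMSO arrays (1.10 ± 0.26, adjusted p = 0.00578). AFF4 and AFF1, scaffolds of the super elongation complex, had differences of 0.99 ± 0.41 and 0.72 ± 0.19 (adjusted p = 0.0149 and 0.0135). AFF1 was not called without GRANTA519 (adjusted p = 0.0552), and AFF4 was not called without GRANTA519, MAVER1 or REC1 (adjusted p = 0.0555, 0.0553 and 0.0549). BRD2, a target of the compound, rose by 0.53, 0.48, 0.81 and 0.52 (0.58 ± 0.15, adjusted p = 0.0209) and was not called with any 1 line left out (adjusted p = 0.0715, 0.051, 0.0799 and 0.0624 without GRANTA519, JEKO1, MAVER1 and REC1). The kinase subunit CDK9 rose by 0.43 ± 0.14 (adjusted p = 0.0485), with adjusted p between 0.0964 and 0.16 when any 1 line was left out. HEXIM1, the P-TEFb inhibitor, differed by 1.02, 0.28, 0.81 and 0.07, a mean of 0.54 ± 0.44 that did not pass (adjusted p = 0.0898). BRD3 differed by 0.22 ± 0.15 (adjusted p = 0.241). POLR2A, the large subunit of RNA polymerase II, rose evenly by 0.98, 1.0, 0.94 and 0.80 (0.93 ± 0.09, adjusted p = 0.00498). MED24, a subunit of the Mediator coactivator, fell, by differences of -1.15, -1.97, -1.82 and -1.39 (-1.58 ± 0.38, adjusted p = 0.00408).

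In the MYC network an antagonist rose and a number of target genes fell, while MYC itself did not pass. Of 41 listed genes of the network and of MYC targets in ribosome assembly and nucleotide synthesis 39 were measured, 3 rose and 12 fell, against 7.55% and 7.15% of all genes, with a median of -0.25. MXD4, which pairs with MAX and represses MYC target genes, lay at 7.80, 6.86, 7.37 and 6.55 under DMSO and at 10.14, 8.35, 9.53 and 8.68 under OTX015. The groups did not overlap, and the difference was 2.03 ± 0.37 (adjusted p = 0.00229). NOP16, a nucleolar ribosome assembly factor, fell, by differences of -1.15, -0.80, -0.90 and -0.63 (-0.87 ± 0.22, adjusted p = 0.0094). The folate carrier SLC19A1 had a difference of -1.14 ± 0.46 (adjusted p = 0.0129) and was not called without MAVER1 (adjusted p = 0.0599) or, just past the threshold, GRANTA519 (0.05). MYC, named after its values were seen, lay at 9.45, 11.68, 11.33 and 11.08 under DMSO and at 8.66, 11.53, 11.37 and 10.87 under OTX015. The groups overlapped and the difference was -0.28 ± 0.36 (adjusted p = 0.279), with -0.66 at 2 h.

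Of the genes of the mitochondrial ribosome, which makes the proteins encoded in mitochondrial DNA, some fell and most did not pass. Of 70 listed genes 69 were measured, 20 fell and none rose, against 7.15% of all genes called as falls, and the median was -0.30. MRPL3, a protein of the large subunit, lay at 11.13, 11.03, 11.54 and 11.62 under DMSO and at 10.09, 9.98, 10.45 and 10.69 under OTX015. The 4 differences lay between -1.09 and -0.93 (-1.03 ± 0.07, adjusted p = 0.00408). MRPS15, of the small subunit, differed by -1.09 ± 0.14 (adjusted p = 0.00408), and MRPL23 less evenly by -1.35, -1.05, -1.93 and -0.81 (-1.29 ± 0.48, adjusted p = 0.0103), the latter not called without GRANTA519 (adjusted p = 0.0506). By contrast 3 of 63 measured genes of the cytosolic ribosome fell, none rose, and their median was 0.00. RPL29 had the largest difference among these 3, -1.20 ± 0.26 (adjusted p = 0.00481). Its sequence is shared with processed copies in the genome, so its value is uncertain. Among 54 measured subunits of oxidative phosphorylation 4 fell and 1 rose (median -0.10), a share of falls near the 7.15% of all genes. NDUFC1, of complex I, fell from 7.81, 9.01, 8.33 and 8.64 to 6.64, 7.97, 6.95 and 7.55. Its groups overlapped because the lines started at different levels, and the fall was even (-1.17 ± 0.15, adjusted p = 0.00361).

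**Figure D2:**
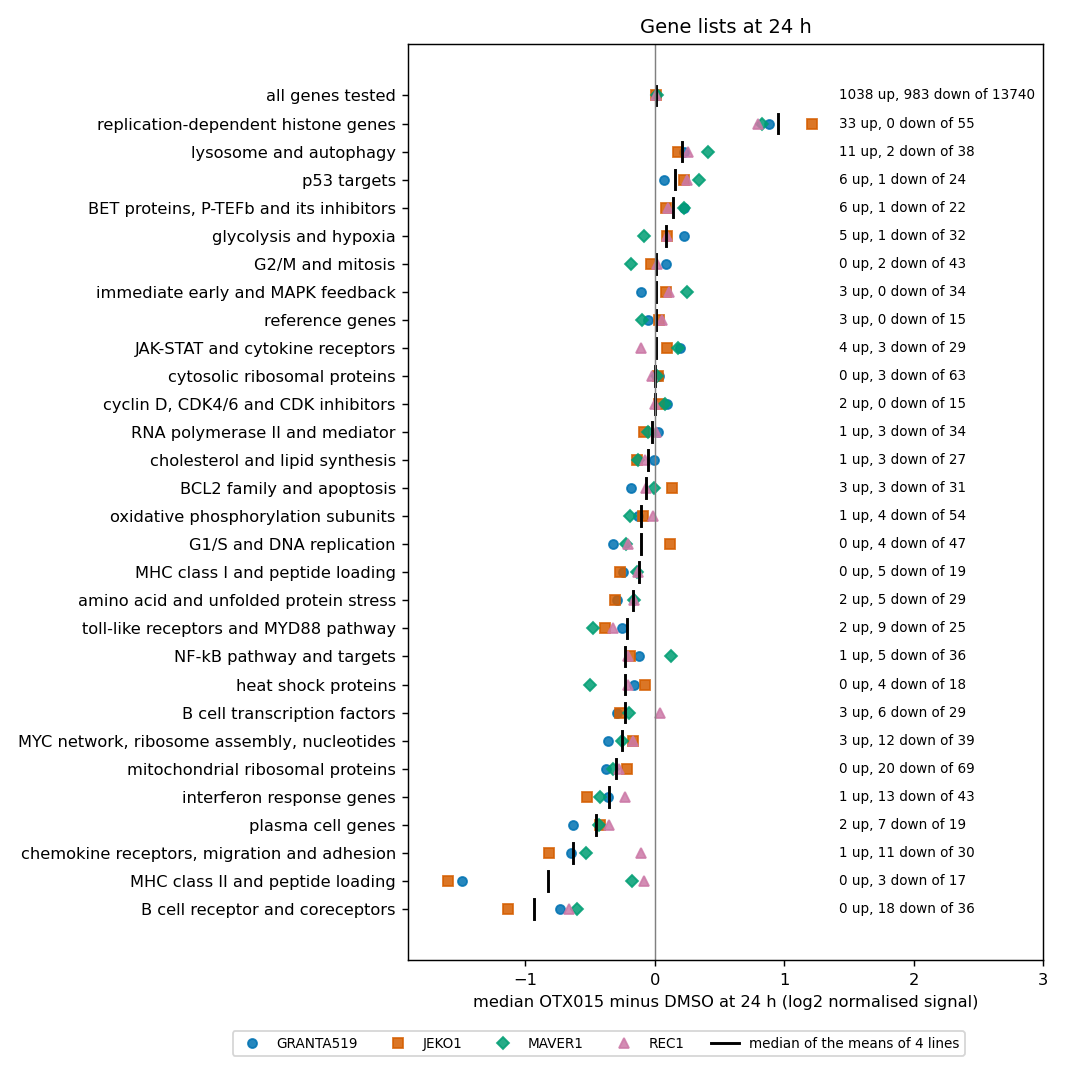
Median difference of each gene list at 24 h (horizontal axis, OTX015 minus DMSO in log2 normalised signal) in each of the 4 lines (symbols) and over the means of the lines (bar), with the number of measured genes that rose and fell at the right. The histone list lies highest with a median of 0.95, the B cell receptor list lowest with -0.93, and the MHC class II list is split between lines, at -1.49 and -1.59 in GRANTA519 and JEKO1 and -0.18 and -0.08 in MAVER1 and REC1.

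Many B cell surface and signalling genes fell, some of them among the 15 largest falls. Of 40 listed genes of the B cell receptor and its coreceptors 36 were measured, 18 fell and none rose, against 7.15% of all genes called as falls. The median of the list was -0.93 at 24 h and -0.15 at 2 h. FCMR, the receptor for the constant part of IgM, lay at 8.12, 9.14, 7.76 and 7.75 under DMSO and at 4.51, 5.17, 4.97 and 5.04 under OTX015. Every OTX015 array was more than 2 log2 units below every DMSO array (-3.27 ± 0.62, 9.66-fold, adjusted p = 0.0018). GAPT, an adaptor that binds GRB2 in B cells, fell, by differences of -3.22, -2.54, -2.20 and -2.95 (-2.73 ± 0.45, adjusted p = 0.0018). CD72, an inhibitory coreceptor, fell, by differences of -1.76, -3.36, -2.46 and -2.09 (-2.42 ± 0.69, adjusted p = 0.00413). FCRL2, an Fc receptor-like protein, fell, by differences of -0.71, -2.61, -3.37 and -3.12 with GRANTA519 the smallest (-2.45 ± 1.20, adjusted p = 0.0144), and was not called without MAVER1 (adjusted p = 0.0618) or REC1 (0.052). The receptor's own signalling chains did not pass: CD79A differed by -0.85 ± 0.82 (adjusted p = 0.099) and CD79B by -0.37 ± 0.52 (adjusted p = 0.264). MS4A1, which encodes CD20, differed by -1.29 ± 0.68 (adjusted p = 0.0203) and was not called without JEKO1 (adjusted p = 0.062), MAVER1 (0.076) or REC1 (0.0543).

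Further genes, some of them of the B lineage, were among the largest falls of all. VPREB3, a chaperone-like partner of immunoglobulin chains whose promoter is printed above, lay at 9.33, 9.34, 10.94 and 10.87 under DMSO and at 6.23, 5.39, 7.02 and 8.28 under OTX015. The groups did not overlap (-3.39 ± 0.66, 10.5-fold, adjusted p = 0.0018). NAPSB, a transcribed relative of the aspartic protease gene NAPSA, fell most of all genes, from 9.53, 9.51, 10.21 and 10.26 to 5.91, 5.16, 6.63 and 7.58 (-3.56 ± 0.68, 11.8-fold, adjusted p = 0.0018). NAPSA fell, by differences of -2.12, -2.45, -2.86 and -2.19 (-2.41 ± 0.34, adjusted p = 0.0018), and since these neighbours are similar in sequence each value may hold signal of the other. SIGLEC10, an inhibitory receptor for sialic acids, fell by 2.65 ± 0.47 (adjusted p = 0.0018), and 1 of 4 OTX015 arrays still detected it. ARHGAP9 and TBC1D10C, regulators of small GTPases in blood cells, had differences of -2.77 ± 0.35 and -2.48 ± 0.78 (adjusted p = 0.0018 and 0.00481). ACSL5, which activates long-chain fatty acids, had a difference of -3.34 ± 0.34 (adjusted p = 0.00179), and -1.66 over the mean of its 4 probes, which thus disagreed in size. SLC2A5, a fructose carrier, fell, by differences of -2.20, -4.11, -2.77 and -2.80 (-2.97 ± 0.81, adjusted p = 0.0036).

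Of 33 listed B cell transcription factors 29 were measured, 6 fell and 3 rose, against 7.15% and 7.55% of all genes, with a median of -0.23. SPI1, which encodes PU.1, a factor of B and myeloid cells, lay at 6.99, 7.44, 6.98 and 7.37 under DMSO and at 4.82, 5.12, 4.65 and 5.74 under OTX015. All 4 lines were lower by a similar amount, and 2 of the OTX015 arrays no longer detected it (-2.11 ± 0.33, adjusted p = 0.0018). BATF, a factor that pairs with JUN proteins and IRF4, fell, by differences of -2.16, -1.91, -0.85 and -1.85 (-1.69 ± 0.58, adjusted p = 0.00677). POU2AF1, the B cell coactivator of octamer-binding factors, named after its values were seen, differed by -1.15, -2.25, -0.43 and -0.65 (-1.12 ± 0.81) and passed narrowly at an adjusted p of 0.0465. ID2, an inhibitor of E proteins, went the other way by 1.15, 1.31, 1.05 and 1.12 (1.16 ± 0.11, adjusted p = 0.00333).

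In the plasma cell list 19 of 21 genes were measured, 7 fell and 2 rose, against 7.15% and 7.55% of all genes, with a median of -0.45. TNFRSF17, the survival receptor BCMA, lay at 8.92, 7.71, 9.25 and 5.79 under DMSO and at 4.74, 4.61, 4.76 and 4.34 under OTX015, where no array detected it. The fall was at least 7.77-fold (means 7.92 and 4.61, adjusted p = 0.00927), and it was smallest in REC1, which started lowest. JCHAIN, the joining chain of polymeric antibodies, differed by -2.86, -3.55 and -3.61 in GRANTA519, JEKO1 and MAVER1 and by 0.06 in REC1 (-2.49 ± 1.73, adjusted p = 0.0352). It was not called without GRANTA519 (adjusted p = 0.128), JEKO1 (0.1) or MAVER1 (0.132).

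Of 28 listed genes of toll-like receptors and the MYD88 pathway 25 were measured, 9 fell, 2 rose and the others did not pass (median -0.22), against 7.15% of all genes called as falls. SLC15A3, a lysosomal peptide carrier that feeds innate sensors, lay at 8.65, 8.17, 7.12 and 10.20 under DMSO and at 4.92, 4.29, 4.43 and 6.78 under OTX015. No OTX015 array reached the lowest DMSO array (-3.43 ± 0.53, 10.8-fold, adjusted p = 0.0018). LY86, a partner of a toll-like receptor homologue on B cells, fell, by differences of -1.21, -2.10, -1.56 and -1.46 (-1.58 ± 0.38, adjusted p = 0.00408). TLR10 differed by -2.36, -3.80, -2.61 and -0.71 (-2.37 ± 1.27, adjusted p = 0.0179) and was not called without GRANTA519 (adjusted p = 0.0721) or MAVER1 (0.076). IRF7, an interferon regulatory factor, rose by 1.53, 1.17, 1.83 and 0.98 (1.38 ± 0.38, adjusted p = 0.0053).

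Of 47 listed interferon response genes 43 were measured, 13 fell and 1 rose, the latter being IRF7, against 7.15% of all genes called as falls and 7.55% as rises, and the median was -0.35. IFITM2, a membrane protein that restricts virus entry, lay at 8.00, 8.88, 9.01 and 8.60 under DMSO and at 5.87, 6.17, 6.97 and 6.65 under OTX015, with no overlap (-2.21 ± 0.35, adjusted p = 0.0018). It has near-copies in the same cluster, so its value is uncertain. TRIM22, an antiviral ubiquitin ligase, fell, by differences of -2.04, -2.40, -1.21 and -2.09 (-1.93 ± 0.51, adjusted p = 0.00408). In the list of chemokine receptors, migration and adhesion 30 of 34 genes were measured, 11 fell and 1 rose (median -0.63), against the same shares. ICAM3, an adhesion molecule of white blood cells, fell, by differences of -1.75, -2.49, -0.94 and -1.66 (-1.71 ± 0.63, adjusted p = 0.00826). Among 36 measured NF-kB genes 5 fell and 1 rose, again against 7.15% and 7.55% of all genes, and the median of -0.23 became 0.05 over the genes of this list detected on all 8 arrays.

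Genes of antigen presentation by MHC class II were split between the lines. Of 20 listed genes 17 were measured, 3 fell and none rose, against 7.15% and 7.55% of all genes, while the median was -0.83. The line medians were -1.49 in GRANTA519 and -1.59 in JEKO1 against -0.18 in MAVER1 and -0.08 in REC1. With 1 pair per line this split was not tested. For HLA-DRA and CIITA, described next, REC1 started lowest, at 6.13 and 4.54 under DMSO, which leaves less room for a fall. HLA-DRA, the shared chain of the DR molecules, was named after its values were seen. It lay at 13.30, 12.68, 12.74 and 6.13 under DMSO and at 12.27, 10.49, 12.69 and 5.51 under OTX015. REC1 was low on both arrays, JEKO1 fell most, and the mean of -0.97 ± 0.90 did not pass (adjusted p = 0.0881). CIITA, the master activator of these genes, also named after its values were seen, lay at 7.20, 6.49, 6.63 and 4.54 under DMSO and at 5.26, 5.14, 6.42 and 5.37 under OTX015. The 4 lines moved by -1.94, -1.35, -0.20 and 0.83, and their mean of -0.67 ± 1.23 did not pass (adjusted p = 0.33). HLA-DOB, a modulator of peptide loading, differed by -2.93, -1.96, -1.19 and -0.63 (-1.68 ± 1.0, adjusted p = 0.0245). It was not called without GRANTA519, JEKO1 or MAVER1 (adjusted p = 0.0599, 0.0711 and 0.0696). HLA-DRB3 differed by -0.84 ± 0.54 (adjusted p = 0.0408), with adjusted p between 0.0733 and 0.0963 when any 1 line was left out. The DRB genes are close copies and differ between lines, so their probes may not tell them apart. In MHC class I presentation 5 of 19 measured genes fell and none rose (median -0.12), against 7.15% of all genes called as falls, and the largest was the immunoproteasome subunit PSMB8 (-1.07 ± 0.33, adjusted p = 0.00907).

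**Figure D3:**
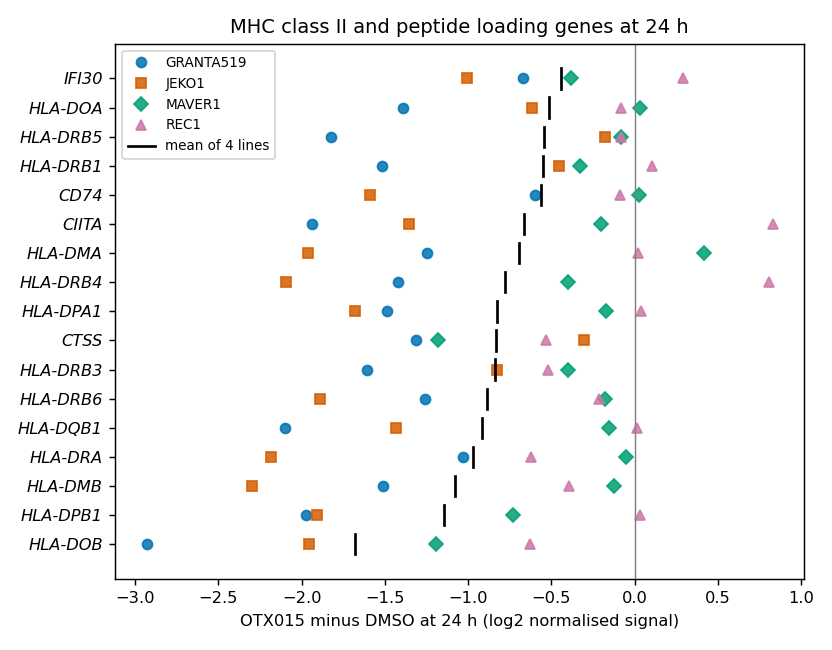
OTX015 minus DMSO at 24 h in log2 normalised signal (horizontal axis) for the 17 measured genes of MHC class II and peptide loading, with 1 symbol per line and a bar at the mean of the 4 lines. GRANTA519 and JEKO1 lie mostly to the left, with line medians of -1.49 and -1.59, and MAVER1 and REC1 mostly near 0, with -0.18 and -0.08.

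Genes of G1/S, replication and G2/M were called as falls at shares near the 7.15% of all genes. None of them was called as a rise, against 7.55% of all genes. Of 47 measured G1/S and replication genes 4 fell (median -0.11), and of 43 G2/M genes 2 fell (median 0.01). The line medians of the G1/S and replication list were -0.32, 0.12, -0.22 and -0.21. POLE2, a subunit of the replicative polymerase epsilon, stood out in size and evenness. It fell, by differences of -1.21, -1.33, -1.44 and -1.39 (-1.34 ± 0.10, adjusted p = 0.00229). Of 15 measured genes of D cyclins, their kinases and inhibitors 2 rose and none fell, against 7.55% and 7.15% of all genes. CDKN1B, the kinase inhibitor p27, lay at 8.56, 8.58, 8.62 and 8.76 under DMSO and at 9.58, 9.18, 9.28 and 10.07 under OTX015, without overlap. The difference was 0.90 ± 0.33 (adjusted p = 0.0143), and the gene was not called without GRANTA519 (adjusted p = 0.0634). CCND1, the cyclin D1 gene that is typically translocated in this lymphoma, differed by 0.18, 0.06 and 0.09 in the first 3 lines and by -1.83 in REC1 (-0.37 ± 0.97, adjusted p = 0.495, and 0.11 without REC1). It lay at 10.80, 4.26, 13.35 and 6.16 under DMSO and at 10.98, 4.32, 13.45 and 4.33 under OTX015. The JEKO1 signal thus lay near background on both arrays and that of REC1 fell to that level, and 3 DMSO and 2 OTX015 arrays detected the gene. Only 1 probe stood for CCND1, so a signal near background may not mean that its transcript was absent. CCND2 differed by -1.24, 0.02, -0.71 and 0.01 (-0.48 ± 0.61, adjusted p = 0.204). It was detected on 2 arrays of each treatment, with JEKO1 and REC1 near background at 4.25 under DMSO. CCND3 differed by 0.49 ± 0.33 (adjusted p = 0.075).

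Several p53 target genes and genes of the lysosome and of autophagy rose. Of 24 measured p53 target genes 6 rose and 1 fell (median 0.16), against 7.55% and 7.15% of all genes. TP53INP1, a p53-induced protein of cell death and autophagy, lay at 7.02, 7.02, 8.10 and 6.93 under DMSO and at 9.21, 9.13, 10.60 and 8.07 under OTX015. It rose in each line, least in REC1, whose OTX015 array lay just under the MAVER1 DMSO array (1.99 ± 0.59, adjusted p = 0.0048). CDKN1A, the classical p53 target, differed by 0.73, -0.61, 0.43 and 0.22 (0.19 ± 0.57, adjusted p = 0.592). AEN, a p53-induced nuclease, fell by 0.76 ± 0.13 (adjusted p = 0.00983). Of 38 measured lysosome and autophagy genes 11 rose and 2 fell (median 0.21), against 7.55% of all genes called as rises. WIPI1, which acts on the forming autophagosome, rose by 0.96, 0.69, 1.11 and 0.88 (0.91 ± 0.18, adjusted p = 0.00677), and 1 of 4 DMSO arrays detected it. Of 31 measured genes of the BCL2 family and apoptosis 3 rose and 3 fell, shares near the 7.55% and 7.15% of all genes. CFLAR, which restrains caspase-8, fell, by differences of -0.69, -1.22, -0.63 and -1.39 (-0.98 ± 0.38, adjusted p = 0.0136). BMF, a death-promoting member, differed by 1.55, 1.26 and 1.33 in the first 3 lines and by -0.02 in REC1 (1.03 ± 0.71, adjusted p = 0.0425). It was not called without GRANTA519, JEKO1 or MAVER1 (adjusted p = 0.151, 0.114 and 0.149). Of 29 measured genes of amino acid and unfolded protein stress 5 fell and 2 rose (median -0.17), against 7.15% and 7.55% of all genes. TRIB3, an inhibitor of AKT induced by such stress, fell, by differences of -1.68, -1.66, -1.36 and -1.40 (-1.52 ± 0.17, adjusted p = 0.00214). The 2 rises were those of ASNS (0.75 ± 0.21, adjusted p = 0.0136) and ATF3 (0.78 ± 0.30, adjusted p = 0.0178). ASNS was not called without MAVER1 (adjusted p = 0.0545), and ATF3 was not called without GRANTA519 (0.061) or MAVER1 (0.0716). Of the DMSO arrays 2 detected ATF3.

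The 24 h response was set against the earlier times to show which of it came late. Across genes the mean effects at 2, 4, 8 and 12 h correlated with those at 24 h at r of 0.454, 0.637, 0.808 and 0.841, a description over 13740 genes and the same 4 lines. Genes at least 2-fold up at 24 h had median effects of 0.52, 0.83, 0.96, 1.0 and 1.20 at the 5 times, and genes at least 2-fold down had -0.25, -0.69, -1.18, -1.29 and -1.40. These genes were chosen at 24 h, so the last value of each course is favoured. The effect changed upward from 2 h to 24 h for 795 genes (5.79% of the genes measured) and downward for 779 (5.67%). These calls draw on the spread over all 5 times, and on the 4 lines' own differences alone 55 and 164 passed. Of the 2021 genes called at 24 h 924 had also changed from 2 h: 415 of the rises had changed upward since 2 h, 494 of the falls had changed downward, and 12 rises and 3 falls were smaller than at 2 h.

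Several of the large falls, in B lineage genes and others, were absent or small at 2 h. VPREB3 stood at -0.37 ± 0.24, -0.49 ± 0.40, -1.49 ± 0.49, -2.72 ± 0.81 and -3.39 ± 0.66 at the 5 times. Its change from 2 h was -3.02 (adjusted p = 4.20e-07). FCMR reached its full fall by 8 h, at -3.08 ± 0.46, after -0.27 ± 0.16 at 2 h, and changed by -3.00 (adjusted p = 1.09e-06). TNFRSF17 was already at -1.72 ± 0.88 at 2 h and at -3.43 ± 0.77 at 4 h. SLC15A3, at -0.21 at 2 h, changed by -3.22 (adjusted p = 1.09e-06).

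Among the rises, TUFT1 was already large at the start, at 2.09 ± 0.17 at 2 h and 2.15 ± 0.69 at 24 h (change 0.06, adjusted p = 0.889). At 4 h it was higher than at 2 h in each line, at 2.72, 2.55, 2.92 and 2.57. GRANTA519 was higher still at 24 h, at 2.90, and the other lines were lower at 24 h than at 4 h. SERTAD1 receded from 1.91 ± 0.59 to 1.10 ± 0.26, a change of -0.81 (adjusted p = 0.0102). TP53INP1 stood at -0.19 ± 0.27 at 2 h and at 0.38, 0.72, 1.19 and 1.99 afterwards, a change of 2.18 (adjusted p = 1.67e-05). MCRIP1, a corepressor-binding protein regulated by MAP kinases, went from -0.13 to 1.81, a change of 1.94 (adjusted p = 3.23e-05). The small RNA genes SCARNA8 and SNORD46 changed upward by 1.74 and 1.78 (adjusted p = 1.20e-04 and 1.99e-04). Both lie within host genes, and their probes may read host transcripts. SNORD46 at 24 h was not called without MAVER1 (adjusted p = 0.0631), and its change from 2 h was not called on the 4 lines' own differences alone (adjusted p = 0.0568).

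From 12 h to 24 h 5 genes changed, 0.0364% of the genes measured, against 1208 at an unadjusted p under 0.05. MXD4 went from 1.49, 0.54, 1.05 and 0.67 at 12 h to 2.34, 1.49, 2.16 and 2.13 at 24 h, a change of 1.10 (adjusted p = 0.0296). Each line rose. TXNIP, which binds thioredoxin and limits glucose uptake, went from 0.95 ± 0.18 to 1.87 ± 0.15 (change 0.93, adjusted p = 0.0174). At 24 h its signal lay at 10.55, 8.65, 10.04 and 8.47 under DMSO and at 12.28, 10.50, 11.88 and 10.56 under OTX015. The groups met at the level of GRANTA519, whose DMSO array was as high as the JEKO1 and REC1 arrays under OTX015, yet the rise was nearly equal in all lines. IFITM2 went from -1.11 ± 0.35 to -2.21 ± 0.35 (change -1.10, adjusted p = 0.0174). MAN2C1, a cytosolic mannosidase, went from -0.04 ± 0.11 to 0.86 ± 0.25 (change 0.90, adjusted p = 0.0174). TNKS2, a tankyrase, went from 0.97 ± 0.66 to -0.52 ± 0.12 (change -1.49, adjusted p = 0.0174), and at 24 h no OTX015 array and 3 of 4 DMSO arrays detected it. These calls draw on the spread over all 5 times: with the 4 lines' own differences alone none of the 5 passed (adjusted p = 0.431 for each). MXD4, TXNIP, IFITM2 and MAN2C1 were also not called with any 1 line left out, and TNKS2 was not called without JEKO1, MAVER1 or REC1, with adjusted p between 0.0509 and 0.373 over these fits. At 24 h itself MAN2C1 was not called without MAVER1 (adjusted p = 0.0517), and TNKS2 with any 1 line left out (adjusted p between 0.0635 and 0.0965).

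**Figure D4:**
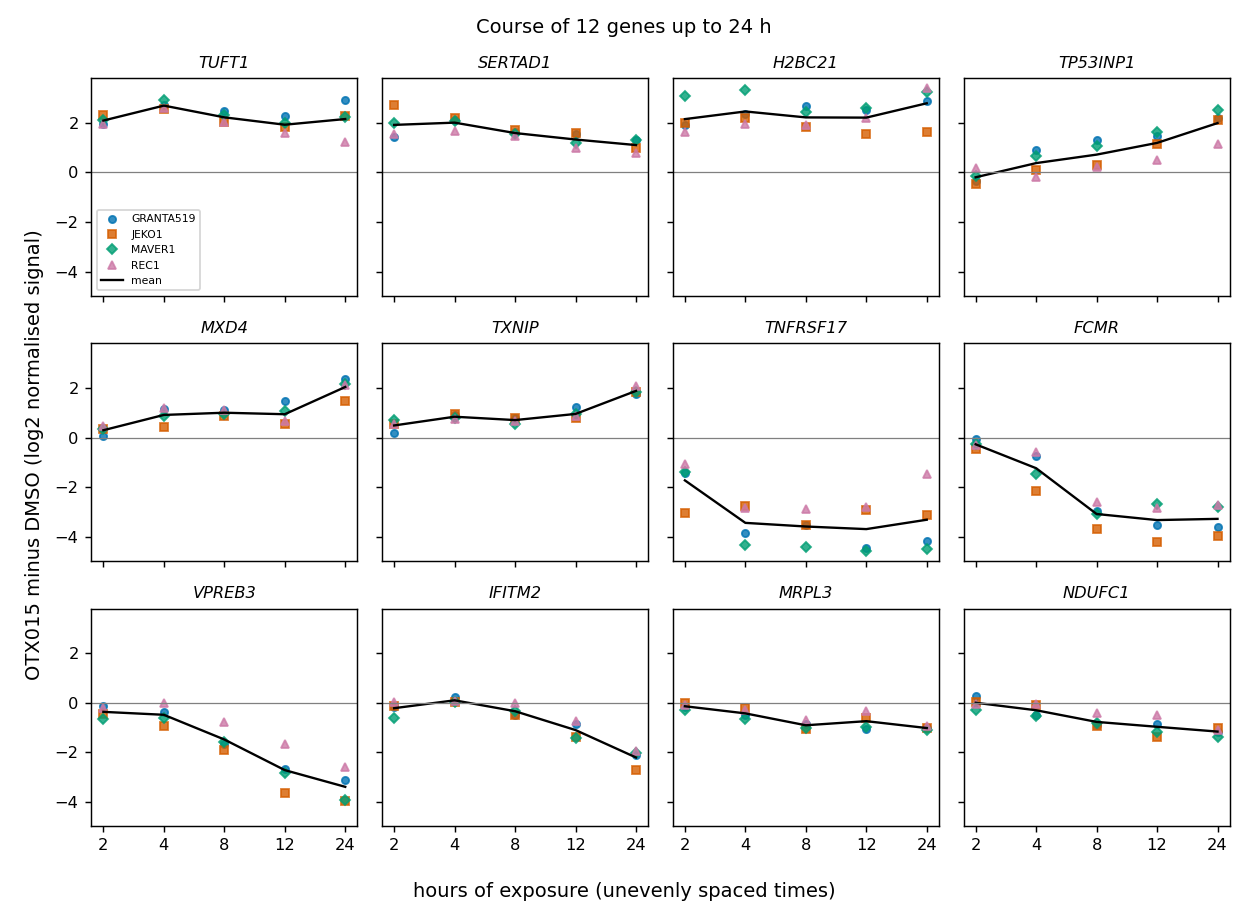
OTX015 minus DMSO in log2 normalised signal (vertical axis) for 12 genes at 2, 4, 8, 12 and 24 h (horizontal axis, times drawn at equal steps), with 1 symbol per line and a line through the means. TUFT1 stands at 2.09 at 2 h and higher in each line at 4 h, between 2.55 and 2.92. TP53INP1 climbs from -0.19 to 1.99, TNFRSF17 is at -3.43 by 4 h, and VPREB3 and IFITM2 fall up to 24 h, to -3.39 and -2.21.

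**Figure D5:**
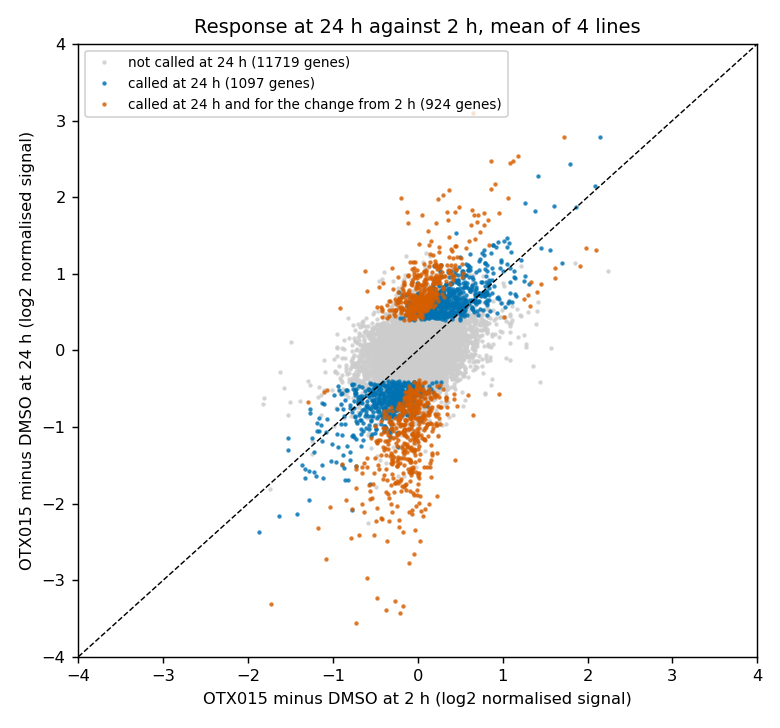
Mean effect at 24 h (vertical axis) against that at 2 h (horizontal axis), both OTX015 minus DMSO in log2 normalised signal, for 13740 genes, with the dashed line at equal effects. Genes called at 24 h whose effect had changed since 2 h (924, orange) lie mainly above or below the line, and those called at 24 h without such a change (1097, blue) lie nearer to it.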

How the data were processed

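The deposited table held 1 intensity for each of 47231 probes on each of 40 single-colour Illumina bead arrays, exported by the authors with GenomeStudio per the submitters' processing notes (no version stated there). RNA quality was checked and biotin-labelled cRNA was made with a TotalPrep kit, per the labels' protocols. The authors' deposited log2 values of the same arrays served as an alternative. The sources used here do not say how these were normalised.

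Each array's background was taken as the mode of its signals. On the 24 h arrays it lay between 91.1 and 101.7 intensity units. Background was removed by limma's normexp method (limma 3.58.1, R 4.3.3) with an offset of 16, followed by quantile normalisation of the 40 arrays and log2, so a change common to every transcript is hidden. Detection meant a signal above the mode by 2.33 SD (a one-sided p of 0.01), and the 27188 probes detected on at least 4 arrays were kept. The files hold no detection p-values or control probes. The annotation gave 1 symbol for 30113 probes, several for 8 and none here for 17110. Symbols were updated through the RefSeq table of GRCh38.p14 for 30074 probes, and 39 were not updated. The probe with the highest mean stood for its gene, which gave 13740 genes. Where no array of a group detected that probe, the change is given as at least N-fold, from the mean of the detected group against the higher of the probe's signal and the lowest detected signal on each array of the other.

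The 24 h comparison was fitted with limma's lmFit and eBayes, with cell line and treatment as terms, on 8 arrays. The labels name the cell line of each array, and that pairs them: deviations from the group means correlated at 0.775 to 0.836 within a line and at most -0.094 between lines. Subtracting the mean of 4 lines itself pulls the values between lines below 0, so their sign carries no information. Changes of the effect over time were contrasts on the 20 line-by-time differences, with line and time as terms, which share 1 spread. All tests were two-sided, with Benjamini-Hochberg adjustment over the 13740 genes and a threshold of 0.05. The fit was tested on simulated data. At 24 h the p-values measure the spread between 4 lines, with 1 array each, whose number limits the precision. Those of the changes over time measure the scatter left after line and time, pooled over the times of the same 4 lines. They treat the 20 differences as independent.

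Genes named were the 15 largest rises and falls with 1 sign in all lines, the 3 largest called members of each of 33 lists with the largest in the other direction, the 6 largest changes over time in each direction, and all BET, cyclin D and marker genes. The experiment and the lists were chosen with earlier results of these data known, so no count of a list is independent evidence. Alternatives were other background, offset, scaling, detection and probe rules, the authors' log2 values, another prior, the spread shared over times, no replicate block, and each line left out.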

Additional observations from a re-analysis of the deposited data

Results flagged for a closer look

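For 12 of the 167 genes named by the rule, 1 line stood apart from the other 3 in OTX015 minus DMSO at 24 h, by a gap above Dixon's limit for 4 values. Chance alone flags about 1 in 20 groups. JEKO1 stood apart in 3 H2A and H2B genes, at 1.44 for H2AC18 (the other lines 2.69 to 2.91), 0.45 for H2AC6 (2.88 to 3.36) and 1.52 for H2BC5 (3.02 to 3.32). REC1 stood apart at -1.83 for CCND1 (0.06 to 0.18) and at -1.87 for CD3D, a T cell receptor chain (-0.08 to 0.10). MAVER1 stood apart at 0.81 for BRD2 (0.48 to 0.53), -0.92 for CDK6 (-0.08 to 0.03) and 3.07 for SCARNA8 (1.5 to 1.76). GRANTA519 stood apart at 0.65 for CD8A (0.08 to 0.16), -2.27 for ITGAM (-0.47 to -0.21), -1.61 for PDGFRB (-0.08 to 0.08) and -1.0 for VCAN (-0.05 to 0.12). CD3D was detected on 1 of 4 arrays of each treatment, CD8A on no DMSO array, and VCAN on no OTX015 array. CDK6 was detected on 2 DMSO arrays and 1 OTX015 array, with JEKO1 and REC1 near background at 4.25 and 4.27 under DMSO. CCND1 was detected on 3 DMSO and 2 OTX015 arrays, with JEKO1 near background at 4.26 under DMSO.

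The effect of OTX015 differed between times in limma's contrasts over the 20 differences. The 6 largest downward changes from 2 h to 24 h were those of SLC15A3 (-3.22), ACSL5 (-3.16), VPREB3 (-3.02), FCMR (-3.00), NAPSB (-2.83) and SH3TC1 (-2.75), with adjusted p at most 2.26e-04. The 6 largest upward changes were those of EFR3B (2.44), TP53INP1 (2.18), MCRIP1 (1.94), SNORD46 (1.78), SCARNA8 (1.74) and MXD4 (1.74), with adjusted p at most 1.99e-04. From 12 h to 24 h the changes were -1.49 for TNKS2, -1.10 for IFITM2, 0.90 for MAN2C1, 0.93 for TXNIP and 1.10 for MXD4, with adjusted p at most 0.0296.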

How the results depend on the processing

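The number of genes called at 24 h depended on how the spread was estimated. It was 1038 up and 983 down, 1815 up and 1567 down with the spread shared over the 20 differences, and 7 up and 23 down with no replicate block, that is without pairing by line, where the share of rises went from 51.4% to 23.3%. With a line left out, 233 to 499 rose and 339 to 520 fell. The fewest rises were called without MAVER1 (233) or GRANTA519 (236), with shares of rises of 40.3% and 41.0%, and 457 were called without REC1 and 499 without JEKO1. From 2 h to 24 h, 55 genes changed upward and 164 downward on the 4 lines' own differences alone, and with a line left out 300 to 656 and 379 to 763 (300 and 379 without GRANTA519, 373 and 402 without MAVER1, 370 and 468 without REC1). From 12 h to 24 h, 0 changed in either direction in limma on the 4 lines alone (1404 at an unadjusted p under 0.05), 1 downward with detection required on at least 4 or on all 8 arrays of 24 h, and with a line left out 0 to 0 upward and 0 to 1 downward (886 to 1087 at an unadjusted p under 0.05). None of the 118 named genes called at 24 h changed sign under any alternative run, while 13 of the other 49 did, such as CCND1 without REC1 (0.11) and PDGFRB without GRANTA519 (0.01), as did the medians of 12 of the 33 lists. Of the 118 named genes called at 24 h, 63 lost the call with at least 1 line left out, with an adjusted p up to 0.16, 22 under another alternative, and 109 with no replicate block. Without background correction the 477 changes of at least 2-fold kept 59.9% of their size, with the authors' log2 values 56.4% and with an offset of 50 77.0%. The histone median of 0.95 was then 0.35, 0.35 and 0.53, and the B cell receptor median of -0.93 was -0.60 and -0.57 without the correction and with the authors' values. Genes near background have the least certain sizes.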

Other observations

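Further gene groups at 24 h gave few or mixed calls, to be read against 7.55% of all genes called as rises and 7.15% as falls. Of 32 measured genes of glycolysis and hypoxia 5 rose and 1 fell (median 0.09). NDRG1, a gene induced by low oxygen, rose by 0.91, 1.21, 1.57 and 0.93 in GRANTA519, JEKO1, MAVER1 and REC1 (1.16 ± 0.31, adjusted p = 0.00648), and ALDOC, an aldolase, by 1.08, 0.62, 1.01 and 0.93 (0.91 ± 0.20, adjusted p = 0.00795). Of 29 measured genes of JAK-STAT signalling and cytokine receptors 4 rose and 3 fell (median 0.01). The kinase gene JAK1 rose by 0.86 ± 0.29 (adjusted p = 0.0129) and was not called without MAVER1 (adjusted p = 0.0582). Of 27 measured genes of cholesterol and lipid synthesis 3 fell and 1 rose (median -0.05), and their median had been 0.37 at 4 h. Of 18 measured heat shock genes 4 fell and none rose (median -0.23). Of 34 measured immediate early genes and MAPK feedback genes 3 rose and none fell (median 0.01). Of 34 measured genes of RNA polymerase II and Mediator 1 rose and 3 fell (median -0.02). Of 15 measured reference genes 3 rose and none fell (median 0.01), namely GUSB, VCP and SDHA, each by at most 0.59 and each not called with any 1 line left out (adjusted p between 0.0623 and 0.146).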
